A study of Mus musculus with 4 samples.

Results

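The mRNA decay regulators Roquin, Regnase and ZFP36, with their counterpart HuR, were examined in mouse T cells as 8 genes chosen by name: Rc3h1, Rc3h2, Zc3h12a, Zc3h12d, Zfp36, Zfp36l1, Zfp36l2 and Elavl1. All 8 were found among the 50600 genes of the deposited count files. RNA came from primary T cells of the mouse strain C57BL/6NJ in 4 biological replicates, the only group the labels give. With 1 group and no control among the samples used here, the data give levels and their spread, not a response. The labels leave sex uncollected, age unknown and treatment unstated, and carry the same donor identifier for all 4 replicates. Apart from the term biological replicates, nothing says that they came from separate animals or cultures. Any p-value therefore measures only the spread between these libraries, which may be technical. File headers name the cells Th0, activated, at 48 hours, which the labels do not repeat. Th0 usually means CD4 T cells stimulated without cytokines that direct them to a helper lineage.

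These proteins set how long cytokine and receptor mRNAs last. Roquin proteins bind short stem-loops in 3′ untranslated regions (UTRs) and recruit the CCR4-NOT complex, which shortens poly(A) tails. Regnase-1 is an endonuclease that cuts mRNAs at similar stem-loops. ZFP36 proteins bind AU-rich elements and also recruit CCR4-NOT, while HuR, the product of Elavl1, binds AU-rich and U-rich RNA and is mostly known to stabilise it. In T cells the Roquin, Regnase-1 and ZFP36 proteins are known as brakes on activation, and the protease MALT1 cleaves Roquin-1 and Regnase-1 after receptor stimulation.

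The AU-rich sites are shown because both sides of the system, the proteins' targets and the ZFP36 and HuR mRNAs themselves, carry them. Each is the stretch of 30 bases with most copies of the heptamer TATTTAT in the annotated 3′ UTR, written 5′ to 3′ as DNA, with the heptamers in capitals.

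Zfp36: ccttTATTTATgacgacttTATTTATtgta

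Zfp36l1: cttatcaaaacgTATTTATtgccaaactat

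Zfp36l2: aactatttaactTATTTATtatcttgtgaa

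Elavl1: tTATTTATTTATTTATTTATtttTATTTAT

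Tnf: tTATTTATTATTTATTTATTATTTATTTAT

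Csf2: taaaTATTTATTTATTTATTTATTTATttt

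Il2: taaacTATTTATctgaaatTATTTATtata

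In mm10 coordinates these sites lie on the minus strand at chr7:28376958-28376987 (Zfp36), chr12:80108422-80108451 (Zfp36l1), chr17:84184914-84184943 (Zfp36l2), chr8:4285777-4285806 (Elavl1), chr17:35199678-35199707 (Tnf), chr11:54247325-54247354 (Csf2) and chr3:37120905-37120934 (Il2). All are exonic and within the 3′ UTR of a GENCODE M21 transcript. The Elavl1 window held 5 copies, as many as the windows of the cytokine genes Tnf and Csf2. Zfp36l1 and Zfp36l2 held at most 1 copy in any window of this size.

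Stem-loops are the sites read by Roquin and Regnase. The search took at least 5 Watson-Crick base pairs closing a loop of 3 bases, pyrimidine, purine, pyrimidine, on the sense strand. For each gene below the longest in its 3′ UTR is shown, with the loop in capitals.

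Tnf stem-loop: gttttcTGTgaaaac

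Nfkbid stem-loop: gatttcTGTgaaatc

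Nfkbiz stem-loop: ttgtttcTATgaaacaa

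Tnfrsf4 stem-loop: gtatgcTATgcatac

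Rc3h2 stem-loop: aacttcTGTgaagtt

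Zc3h12a stem-loop: atttaaaTATtttaaat

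These lie at chr17:35199585-35199599 (Tnf, minus strand), chr7:30428402-30428416 (Nfkbid, plus), chr16:55812613-55812629 (Nfkbiz, minus), chr4:156016541-156016555 (Tnfrsf4, plus), chr2:37373809-37373823 (Rc3h2, minus) and chr4:125118662-125118678 (Zc3h12a, minus). A C-G pair closed the loop in Tnf, Nfkbid, Nfkbiz, Tnfrsf4 and Rc3h2, and an A-T pair in Zc3h12a. The loop letters were TGT in Tnf, Nfkbid and Rc3h2 and TAT in the others, within the pattern that the search required. The longest stem-loop of Rc3h1, not shown, is a repeat of TA closed by an A-T pair. Other reported targets, also not shown, differed from this set. The loop was TAC closed by a T-A pair in Icos and TGC closed by a G-C pair in Il2ra. A C-G pair closed the loop CAT in Ctla4 and TAT in Rel. The sites of Irf4 and Ier3 were not extracted, so the genes shown do not stand for all reported targets.

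Counts assigned to genes ran from 45110199 in replicate 2 to 127755788 in replicate 3, a 2.83-fold range, and the members had 1714 to 35231 read pairs per library. Levels are given in CPM, counts per 1000000 assigned read pairs, which carry no length correction, and in TPM, which divide by gene length first and are the scale used to compare genes; orders in CPM are given only to show what the length correction changes. The T cell label held: all 10 T cell markers, Cd3e, Trac and Cd4 among them, lay above 1 CPM and summed to 3903 to 3985 CPM per library. Of 38 markers of other cell types and CD8 cells, 5 lay above (Cd8b1, Cd68, Adgre1, Eomes and Epcam), 12 had no count, and the sum was 20.7 to 23.7 CPM. Among the 12 were Lyz2, Itgax, S100a8 and Hbb-bs, at 0 counts in all libraries, where 3 counts would be 0.0235 to 0.0665 CPM. Cd68 and Adgre1, above 1 CPM, are monocyte and macrophage markers like Lyz2. Whether the zero counts reflect absent cells or reads that the counting could not assign was not tested. In bulk RNA, fewer cells that express a gene and less RNA per cell cannot be told apart.

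All 8 members were expressed. Each lay above 1 CPM by limma's one-sided test, with adjusted p from 4.52e-18 to 2.38e-15 over 23365 genes, and all 8 also passed at 10 CPM. Over all genes with a count, 47.4% were called above 1 CPM and 36.4% above 10 CPM; among protein-coding genes 69.3% passed 1 CPM. Their mean TPM spanned 41.4-fold, from Zfp36l1 down to Rc3h2, around a median of 80.99 TPM, beside 34.4 TPM for the 10453 protein-coding genes above 1 CPM.

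**Figure D1:**
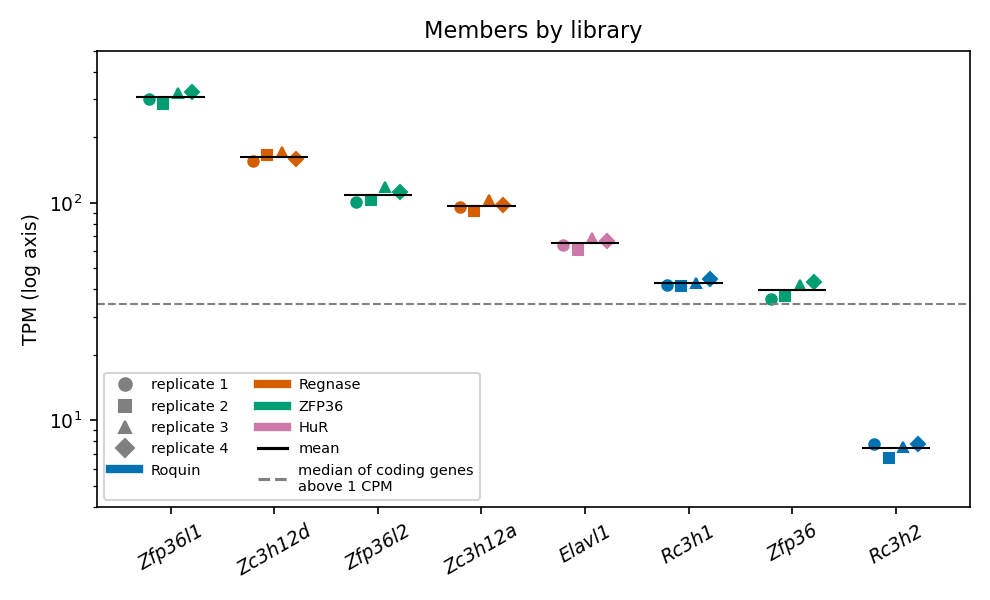
TPM (log axis) of each of the 8 members in each of the 4 libraries, ordered by mean; marker shape gives the replicate, colour the family, black bars the mean, and the dashed line the 34.4 TPM median of protein-coding genes above 1 CPM. The Zfp36l1 points (285 to 324 TPM) lie above all others, those of Rc3h2 (6.68 to 7.78 TPM) below all others, and the points of Rc3h1 and Zfp36 overlap.

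Among the ZFP36 genes, Zfp36l1 dominated. Zfp36l1, a ZFP36 paralog known for restraining lymphocyte growth together with Zfp36l2 (ENSMUSG00000021127.7, chromosome 12, 80107754 to 80113013, minus strand, 2 exons), stood at 299, 285, 320.4 and 324 TPM in replicates 1 to 4. Every library lay above every library of the other members. The mean was 307 TPM ± 18.3 (SD, n = 4), or 267 CPM ± 14.8, higher than 94.9% of protein-coding genes above 1 CPM.

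Zfp36l2, its close paralog (ENSMUSG00000045817.8, chromosome 17, 84183931 to 84187947), stood at 101.2, 103, 118 and 112 TPM, with replicates 3 and 4 above the other two. Its mean was 108 TPM ± 8.01, higher than 81.01% of those genes. Zfp36 itself, which encodes tristetraprolin, the founding member that destabilises Tnf mRNA (ENSMUSG00000044786.6, chromosome 7, 28376784 to 28380253), stood at 36.1, 37.5, 42.1 and 43.3 TPM. Again replicates 3 and 4 were the higher libraries. Its mean of 39.7 TPM ± 3.48 exceeded 54.5% of those genes, close to their median.

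Zfp36l1 made up 67.5% ± 0.827 of the TPM summed over the 3 ZFP36 genes, Zfp36l2 23.8% ± 0.672 and Zfp36 8.72% ± 0.325 (SD, n = 4). The shares moved little between libraries, from 66.7% to 68.6% for Zfp36l1. In log2 TPM Zfp36l1 exceeded Zfp36l2 by 1.502 ± 0.057 and Zfp36 by 2.95 ± 0.07, and Zfp36l2 exceeded Zfp36 by 1.45 ± 0.06, each in 4 of 4 libraries and with ranges that did not overlap. With 4 libraries the smallest p of an exact two-sided sign-flip permutation test is 1 in 8, above the 0.05 threshold, and each of these differences reached that smallest value.

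Of the Regnase members, Zc3h12d exceeded Zc3h12a, and both lay above the median of protein-coding genes above 1 CPM. Zc3h12d, a Regnase relative expressed mainly in lymphoid cells (ENSMUSG00000039981.6, chromosome 10, 7832470 to 7870396, plus strand), stood at 156, 165, 172 and 159 TPM, a mean of 163 ± 7.03 (SD, n = 4). Zc3h12a, the gene of Regnase-1 (ENSMUSG00000042677.7, chromosome 4, 125118423 to 125127840), stood at 95.7, 91.6, 103 and 97.3 TPM, a mean of 96.9 ± 4.74. The groups of values did not overlap, and the log2 ratio was 0.75 ± 0.07 in favour of Zc3h12d in 4 of 4 libraries. Zc3h12d thus held 62.7% ± 1.105 of the TPM of this pair.

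Roquin genes were the lowest family, and unequal. Rc3h1, the gene of Roquin-1 (ENSMUSG00000040423.10, chromosome 1, 160906418 to 160974978), stood at 41.7, 41.3, 42.9 and 44.4 TPM, a mean of 42.6 ± 1.39 (SD, n = 4). Rc3h2, the gene of the partly redundant Roquin-2 (ENSMUSG00000075376.10, chromosome 2, 37370069 to 37422903), stood at 7.74, 6.68, 7.50 and 7.78 TPM, a mean of 7.42 ± 0.51. Rc3h1 was higher in 4 of 4 libraries by a log2 ratio of 2.51 ± 0.08. In TPM, Rc3h2 was the only member below the median of protein-coding genes above 1 CPM, exceeding 16.8% of them. In CPM, where that median was 43.4, both Rc3h2 (42.4 ± 2.93) and Zfp36 (40.1 ± 3.32) lay below it. The size of the gap between Rc3h1 and Rc3h2 depends on gene length. The files sum 19624 exonic bases for Rc3h2, while its principal transcript has 8799. With principal transcript lengths the log2 ratio was 1.396.

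Elavl1, the gene of HuR (ENSMUSG00000040028.10, chromosome 8, 4285382 to 4325413), stood at 64.2, 60.5, 68.7 and 67.0 TPM, with replicate 2 lowest. The mean was 65.1 TPM ± 3.60 (SD, n = 4). The ZFP36 genes together reached 455 TPM ± 28.6, and the log2 ratio of Elavl1 to that sum was -2.81 ± 0.03. With principal transcript lengths it was -1.98.

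Ordered by mean TPM, the members ran Zfp36l1, Zc3h12d, Zfp36l2, Zc3h12a, Elavl1, Rc3h1, Zfp36 and Rc3h2, and all 7 neighbouring pairs kept that order in 4 of 4 libraries. For 2 of them the ranges overlapped: Zfp36l2 exceeded Zc3h12a by a log2 ratio of 0.16 ± 0.06 and Rc3h1 exceeded Zfp36 by 0.10 ± 0.09. The second ratio was as small as 0.03 in replicate 3, while the first was at least 0.08 in each library. The other neighbours were apart, from 0.57 ± 0.03 for Zc3h12a over Elavl1 to 2.40 ± 0.13 for Zfp36 over Rc3h2, with 0.91 ± 0.10 for Zfp36l1 over Zc3h12d, 0.59 ± 0.08 for Zc3h12d over Zfp36l2 and 0.61 ± 0.05 for Elavl1 over Rc3h1. Each of the 7 gave the smallest p that the exact sign-flip test allows.

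Part of that order changed with the gene length used. Elavl1 had rank 2 of the 8 in CPM (196 ± 9.79), rank 5 in TPM with the 10363 exonic bases of the files, and rank 3 at 82 TPM ± 4.64 with its principal transcript of 5743 bases. Zfp36 and Rc3h1 traded places with principal lengths, at a log2 ratio of Rc3h1 over Zfp36 of -0.17. The 3470 bases listed for Zfp36 equal the whole gene from first to last base, intron included, against 2790 in its principal transcript. Zfp36l1 stayed first and Zfp36l1, Zfp36l2 and Zfp36 kept their order among themselves on all 3 scales.

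**Figure D2:**
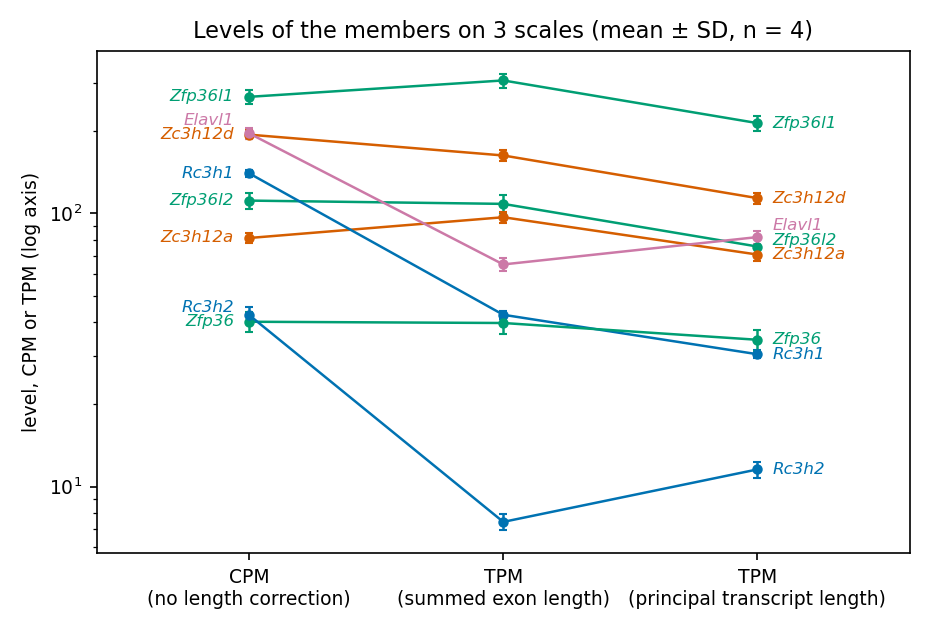
Mean level ± SD (n = 4, log axis) of each member in CPM, in TPM with the summed exon length of the files, and in TPM with the length of a principal transcript; colours give the family as in the plot by library. Zfp36l1 is highest on all 3 scales, Elavl1 moves from 196 CPM to 65.1 and 82 TPM, and Rc3h2 lies lowest on both TPM scales.

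Replicates agreed closely for every member. The coefficient of variation of CPM ran from 3.11% for Rc3h1 to 8.28% for Zfp36, with a median of 6.21% over the 13279 genes tested, and counting alone would give the members 0.792% to 2.05%. None of the 8 was more variable than the edgeR trend at its abundance (goodness-of-fit test, unadjusted p from 0.0872 to 0.764), and none was with DESeq2's fitted trend; 0 of 8 reached an unadjusted p of 0.05. Across all genes 0.422% were called, and 770 genes reached an unadjusted p of 0.05. Replicate 3, the deepest library, was highest for 4 members in CPM and replicate 4 for 3, while replicate 2, the shallowest, was lowest for 5 and replicate 1 for 3. The part of depth in this was not tested.

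**Figure D3:**
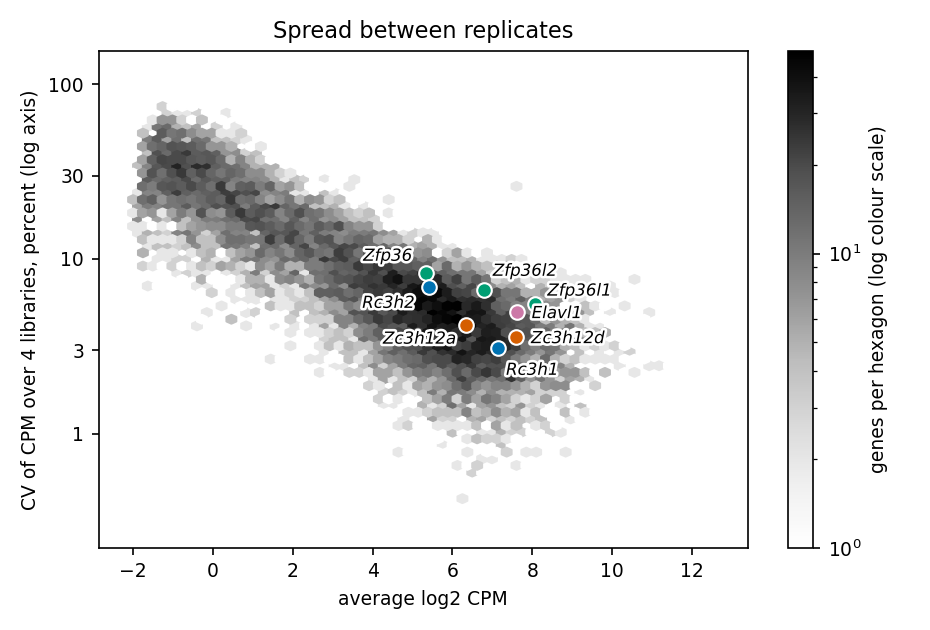
Coefficient of variation of CPM over the 4 libraries (percent, log axis) against average log2 CPM for the 13279 genes tested (grey hexagons, darker for more genes), with the 8 members as coloured points. The members sit within the cloud of genes of their abundance, between 3.11% and 8.28%.

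Paralogs outside the 8 were mostly low. Of 9 listed, 4 lay above 1 CPM, 4 below, and the neuronal HuR relative Elavl2 had no count. Zc3h12c and Zc3h12b, the other Regnase genes, stood at 2.88 TPM ± 0.252 and 0.922 ± 0.17 (SD, n = 4), and Elavl3, Elavl4 and the placental gene Zfp36l3 at most at 0.0271 TPM. Khnyn and N4bp1, genes of other proteins with a Regnase-type nuclease domain, stood at 78.5 TPM ± 6.87 and 16.9 ± 1.02.

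All 10 genes of other AU-rich element binders lay above 1 CPM, with a median of 118 TPM. Hnrnpab and Ybx1, genes of abundant RNA-packaging proteins, reached 1593 TPM ± 43.4 and 1388 ± 42.4, and Khsrp, a decay-promoting factor gene, 354 ± 11.5. Hnrnpd, the gene of the AU-rich binder AUF1, stood at 90.2 TPM ± 3.45. Arid5a, whose product protects some Regnase-1 targets, stood at 15.9 TPM ± 1.68, below the 34.4 TPM median of protein-coding genes above 1 CPM. In CPM it stood at 58.0, above their median of 43.4. Tia1, a translational repressor gene, lay below both medians, at 7.93 TPM ± 0.668 and 36.4 CPM.

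Genes of proteins that regulate the members were all expressed, 12 of 12 above 1 CPM with a median of 70.3 TPM. Malt1, the protease gene, stood at 77.8 TPM ± 3.19, and Bcl10, the gene of its binding partner, at 54.5 ± 1.15. Mapkapk2, the kinase that phosphorylates and restrains ZFP36 downstream of Mapk14, reached 310 TPM ± 7.57, against 107 ± 3.37 for Mapk14 and 48.8 ± 1.41 for the phosphatase gene Dusp1. Of the genes of Roquin and Regnase partners, Upf1, the helicase used by Regnase-1, stood at 206 TPM ± 6.17 and Nufip2, a Roquin cofactor, at 51.3 ± 2.10.

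The decay machinery the members recruit was broadly expressed. All 18 deadenylase genes lay above 1 CPM, led by the CCR4-NOT subunit gene Cnot9 at 175 TPM ± 8.36 and the antiproliferative factor genes Tob2 and Btg1 at 171 ± 10.3 and 143 ± 3.54, with Pan3 and Cnot4 lowest at 16.2 ± 0.355 and 13.1 ± 0.481. Cnot1, the scaffold of the complex, stood at 106 TPM ± 2.91. Without length correction it was the highest of the 18, at 531 CPM against 195 for Cnot9. The orders within these lists rest on the summed exon lengths of the files and were not checked with principal transcript lengths. All 16 decapping and 5′ decay genes lay above, led by Lsm4 (360.4 TPM ± 2.73), Dcps (194 ± 7.48) and the helicase gene Ddx6 (145 ± 4.204), with the exonuclease gene Xrn1 (14.3 ± 0.372) and Dcp1b (5.59 ± 0.352) lowest. Of 15 exosome and SKI genes 14 lay above, Exosc3 (193 TPM ± 4.62), Exosc2 (159 ± 3.18) and Exosc10 (159 ± 5.65) highest and, of those counted, Dis3l lowest (15.7 ± 1.34). Exosc6 had no count, and 100% of its 1326 exonic bases lie within exons of Aars on the same strand, where the counting could not assign reads to it. In all, 93 of the 103 other genes listed lay above 1 CPM, where 69.3% of protein-coding genes with a count did. The median of the 103 was 73.3 TPM, beside 80.99 for the members. All lists were chosen with earlier results of these data known, so these counts describe and do not test.

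**Figure D4:**
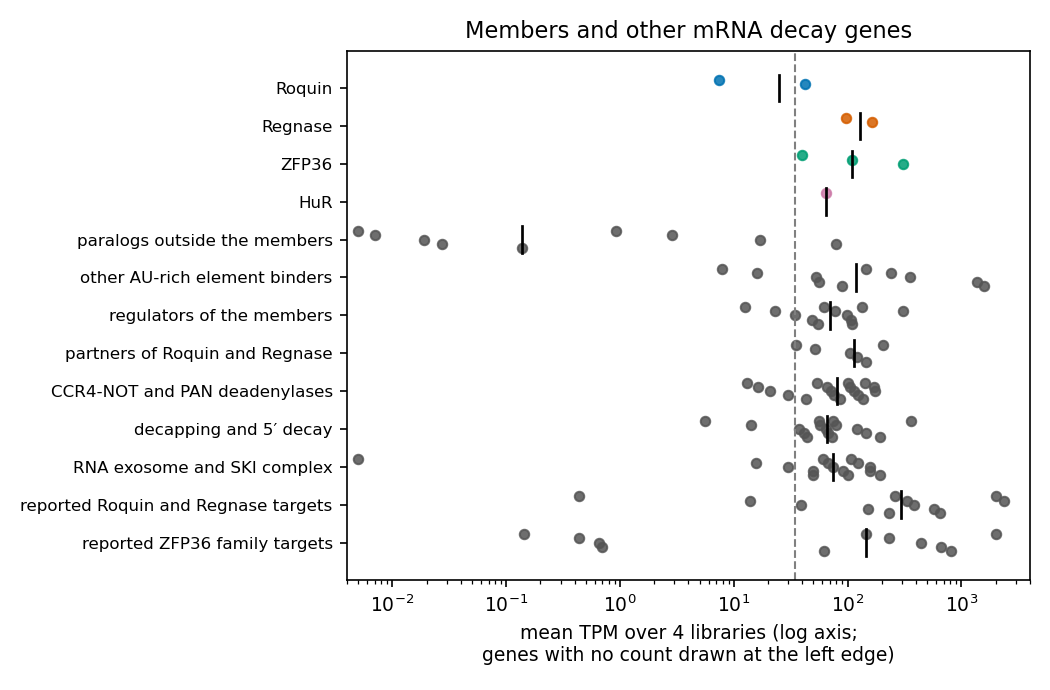
Mean TPM over 4 libraries (log axis) of each gene of the member families (coloured) and of the other lists (grey), with black bars for list medians and a dashed line at the 34.4 TPM median of protein-coding genes above 1 CPM; genes with no count (Elavl2 and Exosc6) are drawn at the left edge. The paralog median, 0.137 TPM, is the lowest of the lists although Khnyn lies at 78.5 TPM, and the medians of the machinery lists lie between 66.1 and 81.2 TPM.

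Reported targets spanned a wide range, from some of the most abundant mRNAs listed to a few below 1 CPM. These lists were drawn from known targets with earlier results of these data in view, so they describe and do not test. Of 12 reported Roquin and Regnase targets 11 lay above 1 CPM, with a median of 296 TPM. The costimulatory receptor gene Tnfrsf4 stood at 2395 TPM ± 82.04, the inhibitory receptor gene Ctla4 at 650.0 ± 27.3, the NF-kB regulator gene Nfkbid at 386 ± 22.8 and Icos, a costimulatory receptor gene and an early known Roquin target, at 151 ± 8.73. Irf4, Il2ra and Rel stood at 582 ± 20.4, 334 ± 17.7 and 259 ± 12.6. Nfkbiz and Ier3 were lower at 38.8 ± 1.73 and 14.0 ± 1.32, and Il6 lay below 1 CPM. Il2 and Tnf, also on this list, are given with the ZFP36 family targets. Of 11 reported ZFP36 family targets 7 lay above and 4 below, the latter being the cytokine genes Ifng, Il10, Il17a and Il6. Il2, Ccl3, Myc and Il3 stood at 2008 TPM ± 97.5, 807 ± 74.2, 660 ± 31.5 and 447 ± 20.9. Lower were Tnf at 231 ± 9.59, Csf2 at 146 ± 11.4 and Notch1, a receptor gene, at 61.7 ± 5.46.

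Motif copies varied among the members. The heptamer occurred in 26.3% of 20920 annotated 3′ UTRs, and 3.78% held 3 or more copies. Among the members, 6 of 8 held it and 5 held at least 3: Elavl1 had 8 copies, and Rc3h2, Zfp36, Zfp36l1 and Zfp36l2 had 3 each. Rc3h1 had 2, while Zc3h12a and Zc3h12d had none. Length matters for such counts, so each was set beside 3′ UTRs of similar length, the shorter at least 0.8 times as long as the longer. Of 1347 such UTRs 0.371% held at least as many copies as Elavl1, and for Zfp36, whose 3′ UTR has only 774 bases, 1.22% of 2695 did. For Zfp36l1 and Zfp36l2 the shares were 4.13% and 4.09%, and for Rc3h2, with 5160 bases, 18.4%. For the 2 copies of Rc3h1, with 7181 bases, the share was 49.9%.

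Stem-loops were found in 19.9% of all 3′ UTRs and in 3 of the 8 members: 4 in Rc3h1, 3 in Zc3h12a and 2 in Rc3h2. Of UTRs similar in length, 16.3% held at least 1 for Zc3h12a, with 856 bases, but 70.3% and 62.1% did for the long 3′ UTRs of Rc3h1 and Rc3h2. Neither the ZFP36 genes nor Elavl1 nor Zc3h12d held any. Rc3h1 and Rc3h2 thus held both kinds of letters, Zc3h12a stem-loops alone, the ZFP36 genes and Elavl1 heptamers alone, and Zc3h12d neither.

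Among reported targets the letters partly followed the lists, which were drawn from genes known partly for such elements. Tnf, Il2 and Il6 are on both lists. Of the 11 ZFP36 family targets 9 held the heptamer, 7 of them at least 3 times, with 9 copies in Csf2 and 8 in Tnf, and 1 held a stem-loop. Of the 12 Roquin and Regnase targets 10 held a stem-loop, all but Il2 and Il6, and 6 held the heptamer. Length matters here too. A stem-loop was found in 63.6% of 3′ UTRs similar in length to that of Rel, 47.0% for Il2ra, 46.0% for Irf4 and 38.4% for Icos. For the other holders that share ran from 3.17% (Tnfrsf4) to 21.8% (Nfkbiz). For the 9 heptamer holders among the ZFP36 family targets, the share with a heptamer ran from 8.19% (Csf2) to 36.6% (Notch1). Tnf held both kinds, 2 stem-loops beside its 8 heptamers. Il3 and Myc held neither in the transcripts used, whose 3′ UTRs are annotated with 101 and 466 bases. A match is only these letters in the annotated sequence, and no match says nothing of binding elsewhere.

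**Figure D5:**
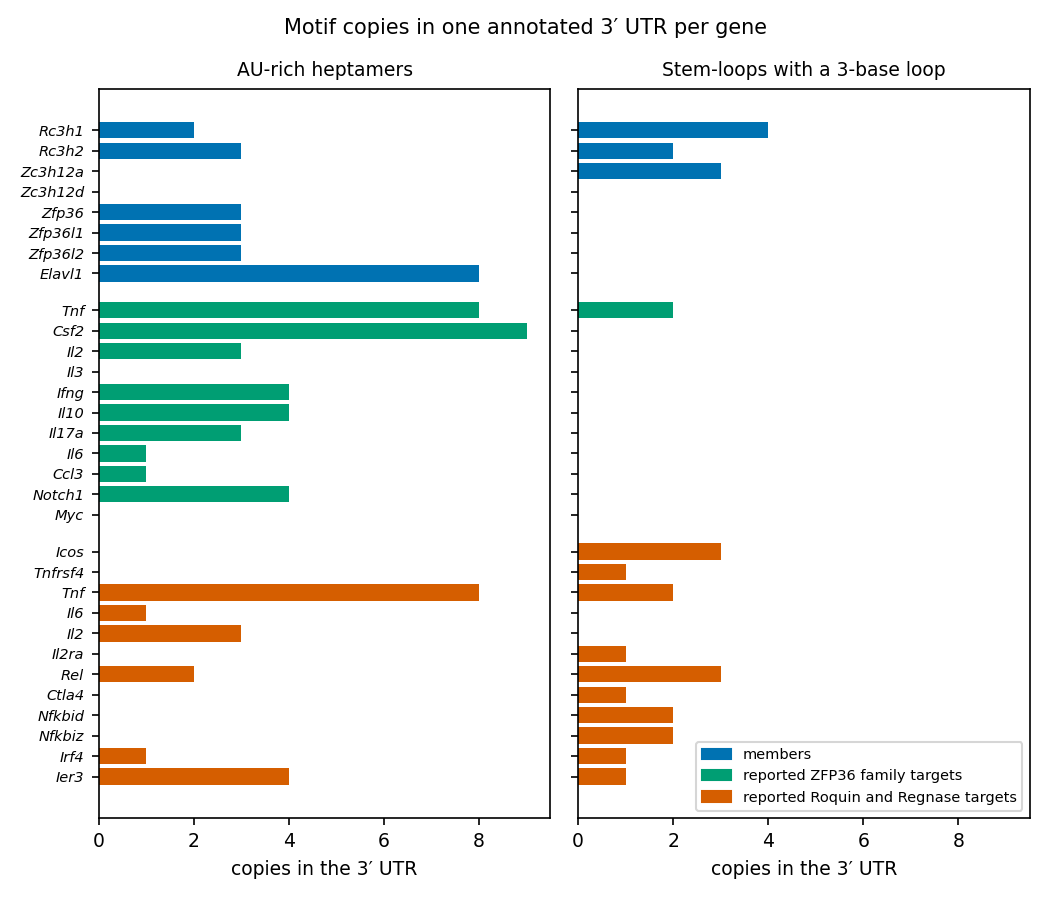
Copies of the AU-rich heptamer (left) and of stem-loops with a loop of 3 bases (right) in one annotated 3′ UTR per gene, for the members (blue), reported ZFP36 family targets (green) and reported Roquin and Regnase targets (orange). Csf2 has 9 heptamers, Tnf and Elavl1 have 8 each, and stem-loops appear in 3 of the members and in 10 of the 12 Roquin and Regnase targets.

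Little of the member sequence that was checked is shared with other genes. No member shares exonic bases with another gene on its strand. On the opposite strand Zfp36l1 overlaps Gm26669 over 1672 bases, but that gene had 6 counts in all, and counting used strand. Elavl1 overlaps the chemokine gene Ccl25 over 204 bases, and Ccl25 stood at 5.56 CPM. Of all stretches of 50 bases in the principal transcripts, at most 3.26% occur in transcripts of another locus, the highest share for Zfp36l1, whose pseudogene Zfp36l1-ps had 3 counts. Exonic sequence outside these transcripts was not searched. The transcript has 8799 bases for Rc3h2, where the files list 19624 exonic bases, and 5743 for Elavl1, where they list 10363.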

How the data were processed

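The authors deposited, for every gene, the unnormalized count of read pairs on its exons; per the file headers these come from featureCounts 1.4.6-p4 with GENCODE M13, strand option 2 and both ends mapped, from STAR alignments; the labels give mm10. For STAR's version, trimming and multiply mapping reads, nothing is given in the sources used here. By its label this is total RNA-seq, but the protocol linked to the libraries names polyA+ RNA. The deposited files also hold each gene's summed exon length; other fields are not used here.

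Symbols from GENCODE M21 matched 50376 of 50600 genes; genes without one took up to 0.00921% of counts in a library. CPM and TPM were computed from counts and lengths. Levels were tested with limma 3.58.1 on log2(CPM + 0.1) against 1 CPM over the 23365 genes with a count, and spread with edgeR 4.0.16 (TMM, filterByExpr, goodness of fit at the trended dispersion), both with Benjamini-Hochberg adjustment, using R 4.3.3. DESeq2 1.42.0 was an alternative. Pairs were compared as log2(TPM + 0.1) ratios within a library, with an exact sign-flip permutation test. Every pair of libraries differed beyond counting noise (chi-square per degree of freedom 7.78 to 24.2), so none was treated as a second copy of another; this does not show that they are separate samples. Floors cover counting error only.

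Transcript sequences came from GENCODE M21 (mm10); each gene's principal transcript was the best APPRIS one with the longest 3′ UTR. Motifs were searched on the sense strand, since they act in RNA, with overlapping copies counted. Named genes are all members, all genes of lists of up to 12, the 3 highest and 2 lowest in TPM of longer lists, and any marker; Exosc7, Exosc9, Ccl25, Aars and the overlapping or pseudogene loci were named after their values were seen. The members and lists were chosen with earlier results of these data known.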

Additional observations from a re-analysis of the deposited data

Results flagged for a closer look

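In each case below 1 library stood apart from the other 3, its gap to the nearest, as a share of the whole range, exceeding Dixon's critical value for 4 samples. Of 109 members and other listed genes with a count, 5 met this, where chance gives about 1 in 20, and none was a member. Cnot1 was lowest in replicate 1, at 514 CPM against 536 to 538 (gap share 0.901). Exosc7 and Exosc9, subunit genes of the RNA exosome, were highest in replicate 1, at 94.2 CPM against 83.8 to 84.8 (0.903) and 73.7 against 65.1 to 66.4 (0.847). Zfp36l3 and Elavl4 were highest in replicate 2 with gap shares of 0.882 and 1, at 0.0665 and 0.0443 CPM, where 3 counts equal 0.0665 CPM, so these are differences of a few read pairs.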

How the results depend on the processing

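All 8 members lay above the threshold under each alternative of scaling, filter, pseudocount, threshold and omitted replicate that was run. Without length correction the log2 ratio of Zc3h12a over Elavl1 was -1.27 and that of Zfp36 over Rc3h2 -0.081, both reversed; with principal transcript lengths, an alternative chosen after seeing the data, Zc3h12a over Elavl1 was -0.21 and Rc3h1 over Zfp36 -0.17. Both settings left 5 of 7 neighbouring pairs in the reported order in every library; a different length per gene makes this change by construction. Leaving out a replicate left 7 of 7. Restricting to genes that pass filterByExpr left 1183 genes below 1 CPM against 11285, since fewer low genes are tested, with 11225 against 11081 above. Genes more variable than the trend numbered 56, and 33 to 40 without 1 replicate: 33 without replicate 1 and 37 without replicate 3 or 4; no member was among them. No paired analysis was possible because the labels give 1 group. At 10 CPM 2 rather than 4 of the 9 paralogs lay above. Depth does not limit the members, at 1714 counts or more, but the 4 libraries limit any test of order.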
